A study of Daphnia pulicaria with 8 samples.

Results

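Red animals were set against Pale animals of the water flea Daphnia pulicaria from Round Lake, using the 1 Red and the 1 Pale library made from that lake. These are 2 of the 8 libraries of the series, which holds 1 Red and 1 Pale library from each of the lakes Round, Black, Doe and Long, in a study whose title joins hypoxia to metabolic phenotype. All libraries came from whole adults, and the labels give no age, strain or treatment beyond the colour phenotype and the lake. Each library was made from pooled animals; the labels state 30 animals for each lake and do not say whether that number covers each phenotype. The gene table lists 33069 genes, and 12865 of them, those whose FPKM (a density of sequenced fragments corrected for transcript length and library size) averaged 1 or more across the 8 libraries, are described here.

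With 1 library per phenotype there is no replicate in Round Lake, so no gene was tested there and no value of the Round pair has an error. A difference is given as log2((Red FPKM + 1)/(Pale FPKM + 1)), which understates the change of genes at low levels, and a gene is counted as higher or lower when this difference is at least 1 in size. The other 3 lakes give the spread against which the Round pair can be set.

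Daphnia carry haemoglobin dissolved in the haemolymph, and animals that make much of it look red. The genes form a family of similar copies, most of which encode a chain with a pair of oxygen-binding domains, and low oxygen is known to raise their transcription. Oxygen is sensed by prolyl hydroxylases, which mark the alpha subunit of hypoxia-inducible factor for breakdown when oxygen is plentiful. The body is covered by a cuticle of chitin and cuticle proteins that is shed and rebuilt at each moult.

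Most genes differed little between the Round libraries. The median difference over 12865 genes was -0.03, with an interquartile range of -0.35 to 0.25. Red was above Pale for 6014 genes (46.7%) and below it for 6793 (52.8%). At a size of 1 or more, 441 genes (3.43%) were higher in Red and 727 (5.65%) were lower. Among the 7183 genes with a mean of 1 to 5 FPKM, 4.25% were higher and 4.71% lower, while among the 1281 genes between 20 and 100 FPKM, 2.58% were higher and 11.1% lower. Of the 373 genes with a Round mean of at least 100 FPKM, 11 were higher, 37 were lower and 244 were within 0.5 of 0.

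The balance of higher and lower genes moved with the scaling, most of all with 1 abundant transcript. The uncharacterized gene Daplx7pEVm025448 held 45.2% of all FPKM in the Red library, against 41.0% in the Pale library of Round Lake. When the libraries were rescaled without it, the median difference of all genes moved to 0.11 and 554 genes were higher and 503 lower, so that 47.6% of the genes past 1 were lower, against 62.2% as deposited. With size factors 420 genes were higher and 675 lower (61.6% lower), and with quantile normalization 481 were higher and 600 lower (55.5% lower). Differences below are from the values as deposited and are to be read against that shift. The FPKM sums were 552570 in Round Red and 582444 in Round Pale, with 20390 and 19831 genes above 0. How many reads each library had is unknown, but the steps between low FPKM values put the depth of Round Red at 1.17 times that of Round Pale.

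**Figure D1:**
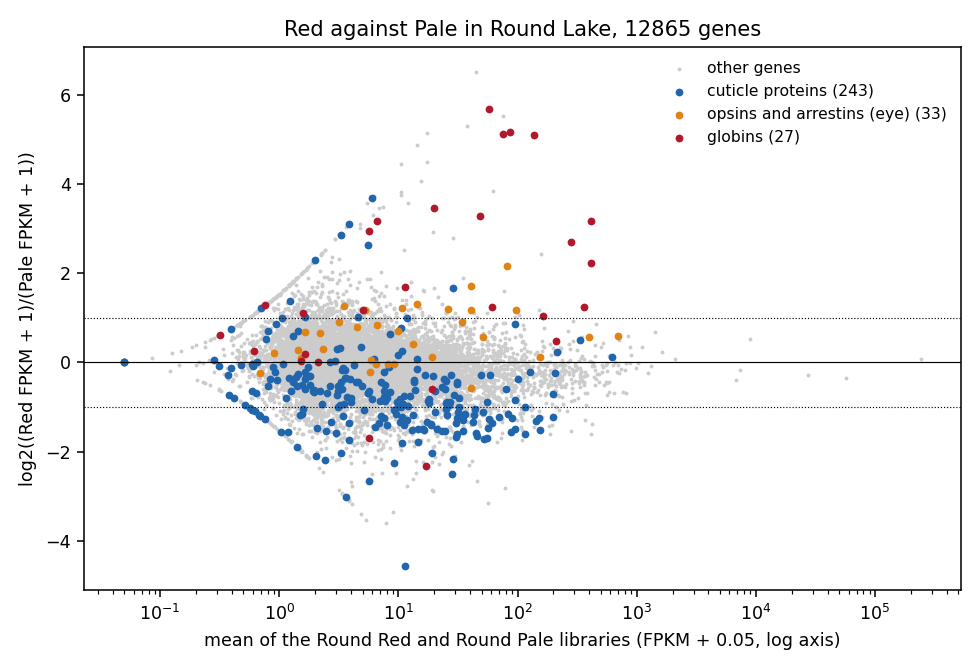
Each point is 1 of 12865 genes, with the mean FPKM of the 2 Round libraries (plus 0.05, log axis) across and the log2 difference of Red against Pale up; dotted lines mark differences of 1 and -1. Globins (red) lie mostly above 0 up to 5.69, opsins and arrestins (orange) mostly above 0 and cuticle proteins (blue) mostly below 0.

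Globin transcripts were higher in Red. The summed FPKM of the 27 globin genes analysed, of 34 in the table, was 3862 in Round Red, against 929 in Round Pale, a ratio of 4.16. Both Round libraries held less globin transcript than those of their phenotype elsewhere: the Red sums were 5265 in Black, 5319 in Doe and 4246 in Long, and the Pale sums were 1719 in Black, 3441 in Doe and 2162 in Long. The ratios of Red to Pale there were 3.06 in Black, 1.55 in Doe and 1.96 in Long. In whole animals, fewer cells of a type and less RNA per cell cannot be told apart, here and in every group below.

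Of the 27 globin genes, 24 were above Pale and 3 below, and 18 were higher and 2 lower by at least 1, against 3.43% and 5.65% of all genes. The median was 1.25, and 2.46 over the globins with a minimum mean of 5 FPKM. Among the copies named di-domain hemoglobin precursor, Daplx7pEVm013713 had 113 FPKM in Red, against 1.21 FPKM in Pale, a difference of 5.69. Daplx7pEVm011494 had 169 FPKM in Red and 3.74 FPKM in Pale, a difference of 5.17. Daplx7pEVm013338 had 148 FPKM in Red and 3.28 FPKM in Pale, and Daplx7pEVm012731 had 269 FPKM in Red and 6.90 FPKM in Pale. All 4 were under 10 FPKM in Pale and above 100 FPKM in Red.

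The copies that were already abundant in Pale differed less, though the Pale value enters both the sorting and the difference. Daplx7pEVm013666, the most abundant globin of Round Lake, had 743 FPKM in Red and 81.5 FPKM in Pale, a difference of 3.17. Daplx7pEVm013675 had 678 FPKM in Red and 144 FPKM in Pale, a difference of 2.23. Daplx7pEVm013589 had 485 FPKM in Red and 73.8 FPKM in Pale, and Daplx7pEVm013392 had 219 FPKM in Red and 106 FPKM in Pale. Daplx7pEVm022328, which the table calls Globin, had 503 FPKM in Red and 212 FPKM in Pale, a difference of 1.24. The 3 most abundant globins of Round Red made up 49.8% of the summed globin FPKM in Red and 47.2% of it in Pale.

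Not every globin was higher in Red. Daplx7pEVm018901 had 4.96 FPKM in Red, against 28.9 FPKM in Pale, and Daplx7pEVm018111 had 2.15 FPKM in Red, against 9.16 FPKM in Pale. Daplx7pEVm013461 had 15.1 FPKM in Red and 23.3 FPKM in Pale. Cytoglobin (Daplx7pEVm002298), a globin of cells rather than of the blood in vertebrates, had 243 FPKM in Red and 174 FPKM in Pale, while its difference was -2.97 in Black, 0.29 in Doe and -1.72 in Long. Cytoglobin-2 (Daplx7pEVm018093) was at 2.08 FPKM in Red and 2.07 FPKM in Pale. Reads can be split among copies so much alike, and the sum is therefore firmer than the level of any single copy.

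**Figure D2:**
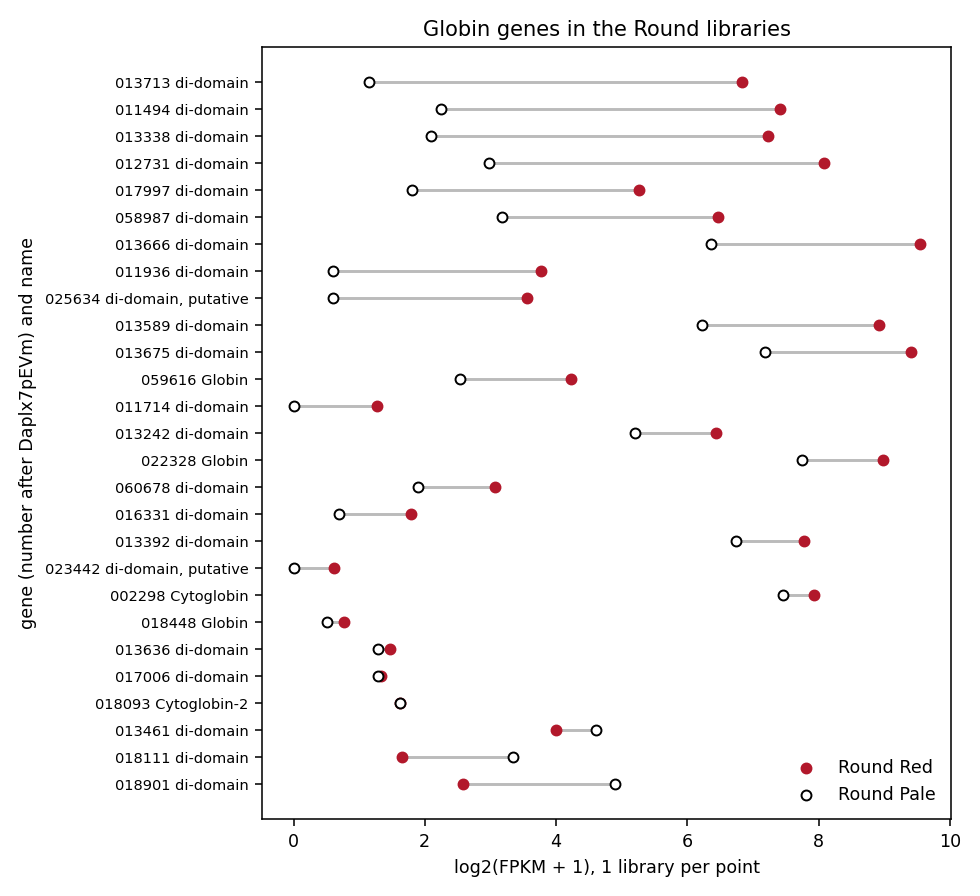
Each row is 1 of the 27 globin genes, sorted by its difference, with log2(FPKM + 1) in the Round Red library (filled) and the Round Pale library (open). Red lies to the right of Pale in 24 rows, and the 4 rows with the longest lines start from Pale values of 1.21 to 6.90 FPKM.

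Some oxygen-sensing genes were higher in Red too. Of 9 genes analysed, 3 were higher by at least 1 and 0 lower in Round, against 3.43% and 5.65% of all genes. In the other lakes 3 were higher in Black, 2 in Doe and 2 in Long, where 2.38%, 5.62% and 3.93% of all genes were. The Round median was 0.07, with 0.25 after rescaling without the most abundant gene and 0.37 with quantile normalization. The prolyl hydroxylase gene Daplx7pEVm014955 had 35.0 FPKM in Round Red, against 3.77 FPKM in Round Pale, a difference of 2.92. In the other lakes it had 16.01 FPKM in Red and 5.10 FPKM in Pale in Black, 21.3 FPKM and 7.74 FPKM in Doe, and 28.7 FPKM and 13.2 FPKM in Long. The Round Red value was thus above, and the Round Pale value below, every other library of the same phenotype.

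Another prolyl hydroxylase gene, Daplx7pEVm017444, had 5.94 FPKM in Red and 1.29 FPKM in Pale, and a further one, Daplx7pEVm009917, had 5.10 FPKM in Red and 7.52 FPKM in Pale. Of the genes named Hypoxia-inducible factor 1-alpha, putative, the abundant Daplx7pEVm003281 had 48.1 FPKM in Red and 45.6 FPKM in Pale. The rarer Daplx7pEVm012460 had 2.83 FPKM in Red and 0.50 FPKM in Pale. Of 12 genes of haem synthesis and breakdown, 1 was higher and 0 lower by at least 1, against 3.43% and 5.65% of all genes. The higher one was Porphobilinogen deaminase (Daplx7pEVm011113), with 1.58 FPKM in Red and 0.10 FPKM in Pale. Its enzyme makes the linear tetrapyrrole of the haem pathway. The most abundant 5-aminolevulinate synthase gene (Daplx7pEVm006529), whose enzyme opens the pathway, had 26.9 FPKM in Red and 30.8 FPKM in Pale, with differences of 1.19 in Black and -1.05 in Long. The list's median was -0.07 in Round, against 0.63 in Black, 0.36 in Doe and 0.05 in Long; rescaled without the most abundant gene the Round median was 0.07. Ferritins, which store iron, included Daplx7pEVm017571 with 164 FPKM in Red and 314 FPKM in Pale; of 24 ferritin and iron transport genes 0 were higher and 2 lower, near the shares of all genes, with a median of -0.03 that was 0.14 after the same rescaling.

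Transcripts of light-sensing proteins were also higher in Round Red. Opsins are the light receptors of the eye, and arrestins end their signal. Of 33 opsin and arrestin genes analysed, of 99 in the table, 27 were above Pale, 9 were higher by at least 1 and 0 lower, against 3.43% and 5.65% of all genes. The median was 0.59, and 0.11 with no filter on low genes. The summed FPKM was 2201 in Red and 1392 in Pale. The most abundant opsin, Daplx7pEVm011723, had 844 FPKM in Red, against 561 FPKM in Pale. Daplx7pEVm012133 had 134 FPKM in Red and 29.0 FPKM in Pale, Daplx7pEVm012168 had 62.5 FPKM in Red and 18.3 FPKM in Pale, and Daplx7pEVm025791 had 20.8 FPKM in Red and 7.78 FPKM in Pale. All of these are named Class a rhodopsin g-protein coupled receptor gprop1, a name shared by 21 analysed genes of which 20 were above Pale.

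In the other lakes the opsin medians were lower. The list median was -0.16 in Black (0.01 after rescaling without the most abundant gene), 0.19 in Doe and -0.27 in Long. Daplx7pEVm012133 had 234 FPKM in Red and 369 FPKM in Pale in Black, 37.2 FPKM and 25.04 FPKM in Doe, and 49.0 FPKM and 116 FPKM in Long. The Round difference was above that of all other 3 lakes for 22 of the 33 genes (66.7%), against 29.5% of all genes analysed, and below all of them for 0 (0.0%), against 17.6% of all genes. By level, the Round Pale sum of 1392 FPKM was close to the Doe Pale sum of 1416 FPKM and below those of Black Pale (3488 FPKM) and Long Pale (3040 FPKM). The Round Red sum of 2201 FPKM was below those of Black Red (2843 FPKM) and Long Red (2453 FPKM). What part the share of eye tissue has in these differences was not tested. Of 10 clock genes, 7 were above Pale, with a median of 0.28 (0.04 with no filter); Cryptochrome-1 (Daplx7pEVm006274) had 20.5 FPKM in Red and 7.91 FPKM in Pale.

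Families of genes with the same name in the deposited tables were compared where at least 5 members were analysed. Of 251 such families holding 2751 genes, 94 had a median above 0 in Round and 157 below; 11 had a median of at least 0.5 and 34 of -0.5 or less. The highest was the di-domain hemoglobin precursor family, with 20 genes, a median of 1.75 and a summed FPKM of 3084 in Red and 535 in Pale. The 5 genes named Poly(U)-specific endoribonuclease, enzymes that cut RNA at uridines, followed with a median of 1.03, against 1.09 in Black, 0.26 in Doe and 1.18 in Long. Their most abundant member, Daplx7pEVm009577, had 255 FPKM in Red and 203 FPKM in Pale.

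Several high families had medians near 0 elsewhere. The 12 genes named Daphplx:hxAUG26up1s2g226t1-like protein had a median of 0.82 in Round, against -0.24 in Black, 0.13 in Doe and -0.01 in Long; Daplx7pEVm003438 had 139 FPKM in Red and 63.7 FPKM in Pale. The 10 genes named Small proline-rich protein had a median of 0.73, against -0.10 in Black, -0.09 in Doe and -0.03 in Long, and all 10 were above Pale in Round. Of 80 genes named 40s ribosomal protein s9, with or without the word putative, 60 were above Pale. Against 3.43% and 5.65% of all genes, 12 of the 80 s9 genes were higher and 3 lower by at least 1. Their median was 0.60 (0.21 when unfiltered, 0.25 with a pseudocount of 5), against -0.10 in Black (0.03 after rescaling without the most abundant gene), 0.18 in Doe and 0.01 in Long. Among these, Daplx7pEVm005968 had 211 FPKM in Red and 93.1 FPKM in Pale and Daplx7pEVm008170 had 117 FPKM in Red and 37.9 FPKM in Pale, while the most abundant, Daplx7pEVm019585, had 144 FPKM in Red and 173 FPKM in Pale.

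The table holds 270 genes with the s9 name. Of the 90 analysed genes of other cytosolic ribosomal proteins, 0 were higher and 1 lower by at least 1, against 3.43% and 5.65% of all genes. These structural proteins of the ribosome had a median of -0.24 in Round, against -0.11 in Black, 0.03 in Doe and -0.14 in Long. The Round difference was below that of all other 3 lakes for 55 of the 90 (61.1%), against 17.6% of all genes. It was above all of them for 6 (6.67%), against 29.5%. After rescaling without the most abundant gene the medians were -0.06 in Round, 0.06 in Black, 0.06 in Doe and -0.10 in Long. With quantile normalization the Round median was -0.03. Their summed FPKM was 19876 in Red and 23513 in Pale. The 40S ribosomal protein S8 gene (Daplx7pEVm017700) had 524 FPKM in Red and 598 FPKM in Pale.

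Cuticle protein transcripts were lower in Round Red. Of 243 cuticle protein genes analysed, of 334 in the table, 205 were below Pale and 35 above; 91 were lower by at least 1 and 11 higher, against 5.65% and 3.43% of all genes. The median was -0.77 (-0.43 with a pseudocount of 5), and the summed FPKM was 4544 in Red and 7423 in Pale. Cuticular protein analogous to peritrophins 3-C (Daplx7pEVm011399) had 56.1 FPKM in Red, against 173 FPKM in Pale. A gene named Cuticular protein, putative (Daplx7pEVm023878) had 79.7 FPKM in Red and 230 FPKM in Pale. Endocuticle structural glycoprotein SgAbd-2 (Daplx7pEVm023503), a protein of the inner cuticle in insects, had 82.2 FPKM in Red and 206 FPKM in Pale. The most abundant cuticle gene, Daplx7pEVm059063, did not share this, with 651 FPKM in Red and 596 FPKM in Pale.

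Cuticle genes also held some of the extremes. Another SgAbd-2 gene, Daplx7pEVm027191, was listed at 0 in Red and at 22.5 FPKM in Pale. Pupal cuticle protein Daplx7pEVm018499 was at 11.9 FPKM in Red and listed at 0 in Pale, and Daplx7pEVm028779 of the same name was at 7.62 FPKM in Red and listed at 0 in Pale. Cuticular protein analogous to peritrophins 1-F (Daplx7pEVm016598) had 10.1 FPKM in Red and 0.79 FPKM in Pale.

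The lakes differed widely in the cuticle genes. Their median was -0.77 in Round, against -0.51 in Black, 1.53 in Doe and -1.38 in Long. Of the 91 genes lower by at least 1 in Round, 37 were also lower in Black, 4 in Doe and 61 in Long. Higher by at least 1 were 14 of them in Black, 62 in Doe and 5 in Long. Over all 243 cuticle genes, 72 were lower in Black, 22 in Doe and 137 in Long, and 41, 140 and 22 were higher. The overlaps are to be read against these counts, as they in large part follow the whole list. The 15 genes named Pupal cuticle-like protein show the range: their summed FPKM was 192 in Red and 437 in Pale in Round, 1065 and 1277 in Black, 1683 and 84.2 in Doe, and 9.22 and 511 in Long. Their most abundant member, Daplx7pEVm021764, had 88.5 FPKM in Red and 212 FPKM in Pale in Round, 371 and 531 FPKM in Black, 674 and 33.95 FPKM in Doe, and 2.08 and 221 FPKM in Long. Both Round libraries stood between the extremes of Doe and Long.

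Other families followed the same order of lakes. The family with the lowest Round median, the 5 genes named Myosin regulatory light chain 2 smooth muscle, had -1.58 in Round, against -0.78 in Black, 2.16 in Doe and -3.90 in Long. Within it Daplx7pEVm017768 had 73.4 FPKM in Red and 203 FPKM in Pale, and Daplx7pEVm059299 had 33.7 FPKM in Red and 112 FPKM in Pale. The most abundant member, Daplx7pEVm018864, was apart, with 510 FPKM in Red and 392 FPKM in Pale. The 6 genes named collagen alpha-1v chain, a collagen of the extracellular matrix, had -1.07 in Round, against -0.68 in Black, 1.81 in Doe and -3.25 in Long; Daplx7pEVm007742 had 63.3 FPKM in Red and 150 FPKM in Pale. A pair of genes named DNA topoisomerase 2-binding protein 1-A, putative, took another order of lakes: Daplx7pEVm021131 had 19.0 FPKM in Red and 139 FPKM in Pale, and Daplx7pEVm017902 had 91.4 FPKM in Red and 280 FPKM in Pale, with differences of 1.18 and 0.84 in Black, -0.83 and -0.27 in Doe, and -5.19 and -3.81 in Long.

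Of 59 collagen genes in all, 4 were higher and 12 lower by at least 1, against 3.43% and 5.65% of all genes, with a median of -0.13 that was -0.01 after rescaling without the most abundant gene. Chains of type VI stood on both sides: Collagen alpha-3(VI) chain/sw (Daplx7pEVm005626) had 34.3 FPKM in Red and 0.58 FPKM in Pale and Collagen alpha-6(VI) chain Daplx7pEVm006145 had 9.14 FPKM in Red and 0.26 FPKM in Pale, while Daplx7pEVm015214 of the latter name had 0.59 FPKM in Red and 3.44 FPKM in Pale. Of 100 genes of chitin synthesis and breakdown, 0 were higher and 15 lower by at least 1, against the same shares. The median was -0.26, with -0.14 after that rescaling and -0.10 with no filter. Brain chitinase and chia (Daplx7pEVm009745), a chitin-cleaving enzyme, had 144 FPKM in Red and 417 FPKM in Pale. Mucin peritrophin Daplx7pEVm026463, a protein of the gut lining, had 10.7 FPKM in Red and 103 FPKM in Pale, while the most abundant gene of that name, Daplx7pEVm026522, had 1012 FPKM in Red and 1019 FPKM in Pale.

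**Figure D3:**
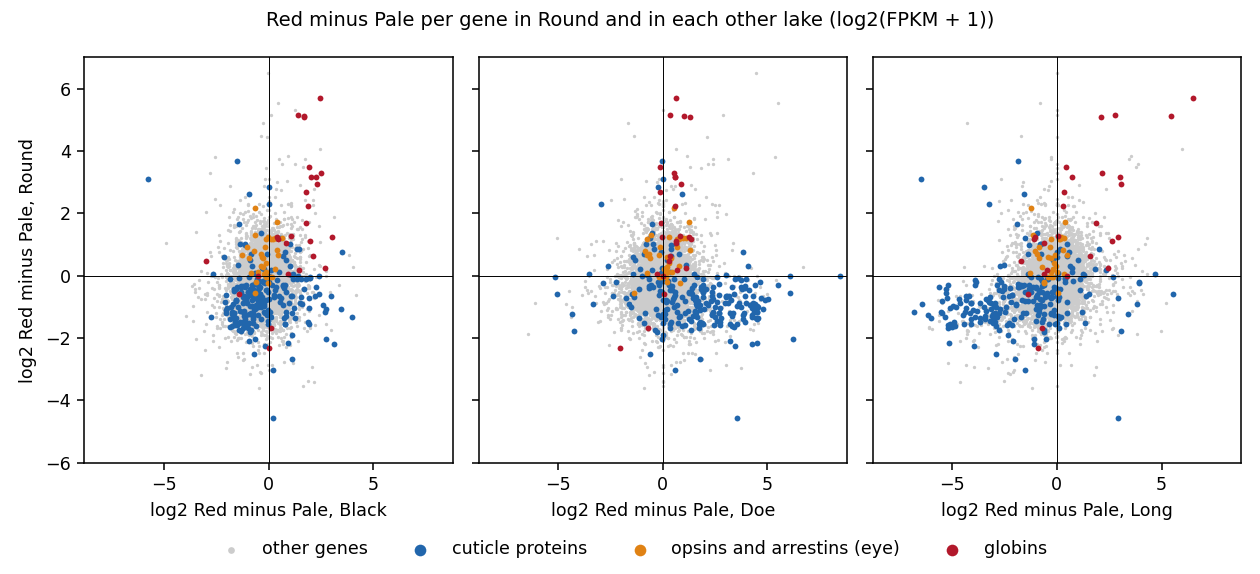
Each point is 1 gene, with its log2 difference of Red minus Pale in Round up and in Black, Doe or Long across. Cuticle proteins (blue) lie mostly below 0 in Round and spread to the right in Doe and to the left in Long, while globins (red) with large Round differences lie right of 0 in Black.

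Lectins, genes named after contactin and neurexin, and lipid carriers were lower in Round Red as well. Of 112 genes of lectins and fibrinogen-like proteins, which bind sugars and take part in immune recognition, 90 were below Pale and 28 were lower and 2 higher by at least 1, against 5.65% and 3.43% of all genes. The median was -0.56, with -0.34 for no filter and -0.33 for a pseudocount of 5. The gene named c-type lectin ctl - mannose binding Daplx7pEVm015969 had 6.83 FPKM in Red and 37.0 FPKM in Pale, and Daplx7pEVm016013 of the same name had 2.99 FPKM in Red and 14.0 FPKM in Pale. The most abundant member, L-rhamnose-binding lectin CSL2-like protein (Daplx7pEVm017907), had 234 FPKM in Red and 406 FPKM in Pale. Of the 28, 8 were also lower by at least 1 in Black, 0 in Doe and 12 in Long. Among all genes 7.71%, 5.41% and 9.70% were lower there. Over the whole list of 112 genes, 19 were lower in Black, 9 in Doe and 27 in Long, and the overlaps are to be read against these counts too.

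A nerve list picked by name held 128 genes. Most were named Contactin-associated protein (42 genes, 7 lower by at least 1), Contactin-associated protein 1 (32, 8 lower) or Neurexin IV (28, 9 lower). The list thus describes mainly these names and not nerve genes at large. In it 96 genes were below Pale, and 25 were lower and 0 higher by at least 1, against 5.65% and 3.43% of all genes. The median was -0.41 in Round, against -0.60 in Black, -0.16 in Doe and -0.37 in Long; the Round median was -0.26 after rescaling without the most abundant gene or when unfiltered, and -0.25 with a pseudocount of 5. Neurexin IV genes, whose product forms cell junctions in flies, included Daplx7pEVm014413 with 95.9 FPKM in Red and 206 FPKM in Pale and Daplx7pEVm013833 with 7.69 FPKM in Red and 27.8 FPKM in Pale. Contactin-associated protein 1 genes included Daplx7pEVm012836 with 12.1 FPKM in Red and 37.6 FPKM in Pale and Daplx7pEVm007500 with 4.36 FPKM in Red and 15.5 FPKM in Pale. Of 11 genes of apolipoprotein D and lipocalins, small carriers of lipids and pigments, 9 were below Pale. By at least 1, 5 were lower and 0 higher, against 5.65% and 3.43% of all genes. The median of these 11 was -0.88 (-0.52 with no filter). Apolipoprotein D (Daplx7pEVm016393) had 85.4 FPKM in Red and 214 FPKM in Pale in Round, and was also below Pale in Black and Doe but above it in Long, with 130 FPKM in Red and 84.7 FPKM in Pale.

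Few genes of energy metabolism differed by at least 1 in Round. Their counts at that size are to be set against 3.43% of all genes higher and 5.65% lower. Of 74 genes of the respiratory chain and ATP synthase, 55 were below Pale and 3 were lower and 0 higher by at least 1, with a median of -0.22 that was -0.05 after rescaling without the most abundant gene and -0.03 with quantile normalization. As deposited, the list medians were -0.05 in Black, -0.11 in Doe and -0.18 in Long. The Round difference was below all other 3 lakes for 28 of the 74 (37.8%), against 17.6% of all genes. It was above all of them for 13 (17.6%), against 29.5%. The subunit gene of complex I with the highest level, NADH-ubiquinone oxidoreductase chain (Daplx7pEVm019794), had 5899 FPKM in Red and 7806 FPKM in Pale. Of 31 tricarboxylic acid cycle genes, 1 was higher and 0 lower by at least 1, with a median of -0.15 that was 0.00 after rescaling without the most abundant gene. Succinate dehydrogenase iron-sulfur subunit (Daplx7pEVm015988) had 17.2 FPKM in Red and 33.1 FPKM in Pale. Of 53 genes of fatty acid oxidation and elongation, 1 was higher and 2 lower, with a median of -0.24 (-0.09 after that rescaling).

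Glycolysis and lactate genes had a median of -0.06 in Round (0.11 after that rescaling), against 0.41 in Black, -0.02 in Doe and 0.30 in Long, and 0 of 16 were past 1 in Round. The largest differences among them were above 0. Aldolase C (Daplx7pEVm008346) had 208 FPKM in Red and 122 FPKM in Pale, and L-lactate dehydrogenase A chain (Daplx7pEVm012127), which turns pyruvate into lactate, had 59.8 FPKM in Red and 38.9 FPKM in Pale. Of 12 glycogen and trehalose genes, 8 were above Pale, with a median of 0.34 (0.04 with no filter). Glycogen phosphorylase (Daplx7pEVm003141), which frees glucose units from glycogen, had 98.1 FPKM in Red and 60.5 FPKM in Pale.

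**Figure D4:**
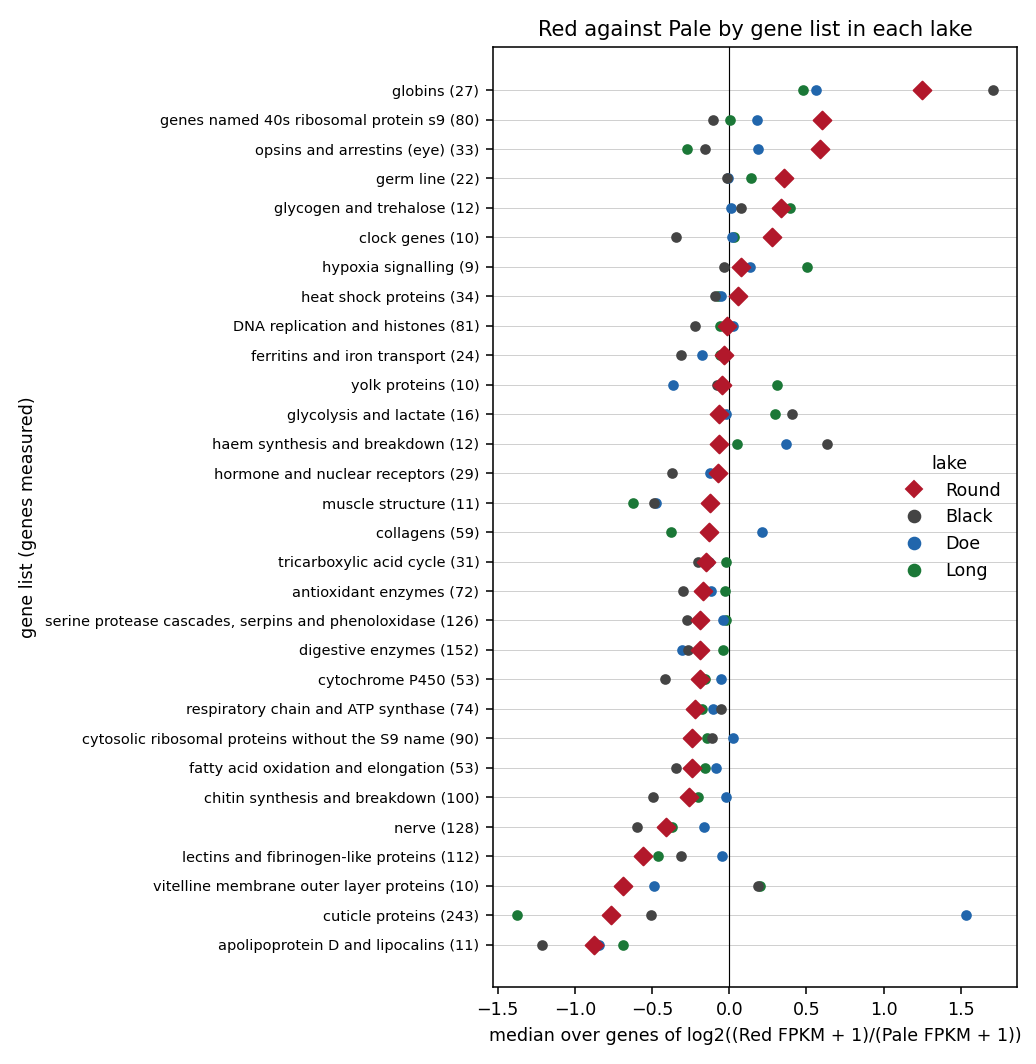
Each row is 1 of 30 gene lists, sorted by its median log2 difference of Red against Pale in Round (diamond), with the medians in Black, Doe and Long as dots. Globins lie above 0 in all 4 lakes, apolipoprotein D and lipocalins below 0 in all 4, and cuticle proteins at 1.53 in Doe, against -0.77 in Round.

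Among lists of reproduction, growth, muscle and hormones, 2 medians stood away from 0 in Round as deposited, but neither did so under every filter. The 10 yolk protein genes had a median of -0.05 (0.09 after rescaling without the most abundant gene); Vitellogenin-1 precursor Daplx7pEVm000583, the yolk precursor with the highest level, had 990 FPKM in Red and 776 FPKM in Pale; it is made by females that provision eggs. The 10 genes of vitelline membrane outer layer proteins had a median of -0.69, with -0.10 for a minimum mean of 5 FPKM and -0.18 for no filter, and the abundant Daplx7pEVm018200 had 187 FPKM in both libraries. The 22 germ line genes had a median of 0.35, with 0.00 for no filter, and the abundant Tudor and KH domain-containing protein (Daplx7pEVm020519) had 57.4 FPKM in Red and 142 FPKM in Pale. Medians were -0.02 for 81 genes of DNA replication and histones, -0.12 for 11 muscle structure genes and -0.07 for 29 hormone and nuclear receptor genes, and all 3 changed sign after that rescaling, to 0.15, 0.06 and 0.09.

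Of the 11 muscle structure genes, 8 were below Pale in Round and 3 above. Their median was -0.12 in Round, against -0.49 in Black, -0.47 in Doe and -0.62 in Long. The Round difference was above that of all other 3 lakes for 9 of them (81.8%), against 29.5% of all genes. It was below all of them for 0, against 17.6% of all genes. Over the 11 genes the Round difference ran from -0.64 to 0.35, the highest being that of a myosin gene. That gene and an actin gene outside the list were above Pale in Round and below it elsewhere. The calcium pump gene given after them is also outside the list. Myosin heavy chain (Daplx7pEVm000372), the motor of muscle, had 565 FPKM in Red and 444 FPKM in Pale in Round, a difference of 0.35, against -0.49 in Black, -0.49 in Doe and -0.44 in Long. Actin-87e (Daplx7pEVm012533) had 590 FPKM in Red and 325 FPKM in Pale in Round, against 593 and 768 FPKM in Black, 272 and 406 FPKM in Doe, and 429 and 539 FPKM in Long. Calcium-transporting ATPase of the sarcoplasmic or endoplasmic type (Daplx7pEVm002178), which pumps calcium back into the store, had 380 FPKM in Red and 201 FPKM in Pale, a difference of 0.92, against 0.23 in Black, 0.10 in Doe and 0.36 in Long. The remaining lists had Round medians of -0.19 for 152 digestive enzymes, -0.19 for 126 genes of serine protease cascades, serpins and phenoloxidase, -0.17 for 72 antioxidant enzymes, -0.19 for 53 cytochrome P450 genes and 0.06 for 34 heat shock protein genes. After rescaling without the most abundant gene these were -0.04, -0.03, 0.00, -0.06 and 0.22.

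Outside the lists, Pol protein (Daplx7pEVm021505), a name given to polyproteins of transposable elements, had 268 FPKM in Red and 48.8 FPKM in Pale in Round, 480 and 110 FPKM in Black, 43.7 and 39.7 FPKM in Doe, and 26.9 and 126 FPKM in Long. Angiotensin-converting enzyme 3 precursor (Daplx7pEVm005013), a peptidase gene, had 100.2 FPKM in Red and 270 FPKM in Pale. High choriolytic enzyme (Daplx7pEVm009404), named after a hatching enzyme of fish, had 2.20 FPKM in Red and 17.0 FPKM in Pale, and LysM, Lysin motif (Daplx7pEVm023717) had 3.87 FPKM in Red and 34.8 FPKM in Pale. The largest difference of all belonged to the uncharacterized gene Daplx7pEVm019739, at 90.0 FPKM in Red and listed at 0 in Pale. It was also listed at 0 in both Long libraries and in Doe Pale, with 20.9 FPKM in Doe Red, 71.7 FPKM in Black Red and 73.5 FPKM in Black Pale. The uncharacterized Daplx7pEVm019079 had 150 FPKM in Red and 2.28 FPKM in Pale in Round, with 130 and 96.6 FPKM in Black.

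The other lakes shared only some of the Round differences. At a size of 1, 2.38% of genes were higher and 7.71% lower in Red in Black, 5.62% and 5.41% in Doe, and 3.93% and 9.70% in Long. Of the 441 genes higher in Round Red, 58 were also higher in Black (13.2% of the Round genes and 19.0% of the Black ones), 69 in Doe (15.7% and 9.54%) and 55 in Long (12.5% and 10.9%). Past 1 the other way were 57 of them in Black, 37 in Doe and 71 in Long. Of the 727 genes lower in Round Red, 210 were also lower in Black (28.9% and 21.2%), 101 in Doe (13.9% and 14.5%) and 316 in Long (43.5% and 25.3%), and 55, 202 and 54 were past 1 the other way. The lower genes were thus shared mostly with Long, and more of them were past 1 the other way than the same way in Doe.

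In none of the other lakes past 1 in the same direction were 305 of the 441 higher genes (69.2%) and 268 of the 727 lower genes (36.9%). Only 2.38% to 5.62% of all genes were higher and 5.41% to 9.70% lower in each other lake. Most genes of a set picked at random would therefore be past 1 in none, and these counts do not mark genes as special to Round. Most of the lower genes were shared with another lake. Of the 727, 303 were also lower past 1 in exactly 1 other lake, 144 in 2 and 12 in all 3. For the 441 higher genes these counts were 99, 28 and 9. Over all 12865 genes, the Spearman correlation of the Round difference was 0.19 with Black, 0.09 with Doe and 0.23 with Long. Over the 372 genes that averaged 100 FPKM or more in the 8 libraries it was 0.43, 0.22 and 0.34. These are descriptions over genes, which are not independent, and each pair of libraries shares its scaling by the same abundant transcript.

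In all 4 lakes, 9 genes were higher and 12 lower in Red by at least 1. The 9 included 3 globins, Daplx7pEVm012731, Daplx7pEVm013338 and Daplx7pEVm022328, the prolyl hydroxylase gene Daplx7pEVm014955 and 3 uncharacterized genes, Daplx7pEVm061938, Daplx7pEVm024220 and Daplx7pEVm062344. Daplx7pEVm015745, named Pathogen-related-like protein, had 23.2 FPKM in Red and 1.03 FPKM in Pale in Round, 11.7 and 4.35 FPKM in Black, 17.7 and 2.60 FPKM in Doe, and 24.2 and 0.69 FPKM in Long. Daplx7pEVm026722, named Normal mucosa of esophagus-specific gene 1 protein, had 3.19 FPKM in Red and 0.40 FPKM in Pale in Round, and another gene of that name, Daplx7pEVm025873, had 55.6 FPKM in Red and 14.2 FPKM in Pale but a difference of only 0.52 in Doe.

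Among the 12 lower genes, Prostaglandin-H2 D-isomerase (Daplx7pEVm017095), a lipocalin, was the steadiest. It had 25.7 FPKM in Red and 68.6 FPKM in Pale in Round, 19.0 and 61.1 FPKM in Black, 16.6 and 54.4 FPKM in Doe, and 22.3 and 62.6 FPKM in Long, so that its 4 Red values lay below its 4 Pale values. Low-density lipoprotein receptor ldl (Daplx7pEVm008956), a receptor that takes up lipoproteins, had 1.91 FPKM in Red and 7.59 FPKM in Pale in Round. Contactin-associated protein (Daplx7pEVm006652) had 3.31 FPKM in Red and 10.9 FPKM in Pale, and Contactin-associated protein 1 (Daplx7pEVm011086) had 3.99 FPKM in Red and 10.2 FPKM in Pale. Serpin B6 (Daplx7pEVm002307), a protease inhibitor, had 13.4 FPKM in Red and 30.6 FPKM in Pale in Round, with differences of -1.39 in Black, -1.05 in Doe and -1.19 in Long. The uncharacterized Daplx7pEVm029238 had 49.4 FPKM in Red and 167 FPKM in Pale in Round, and 6 further genes of the 12 carry no informative name.

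**Figure D5:**
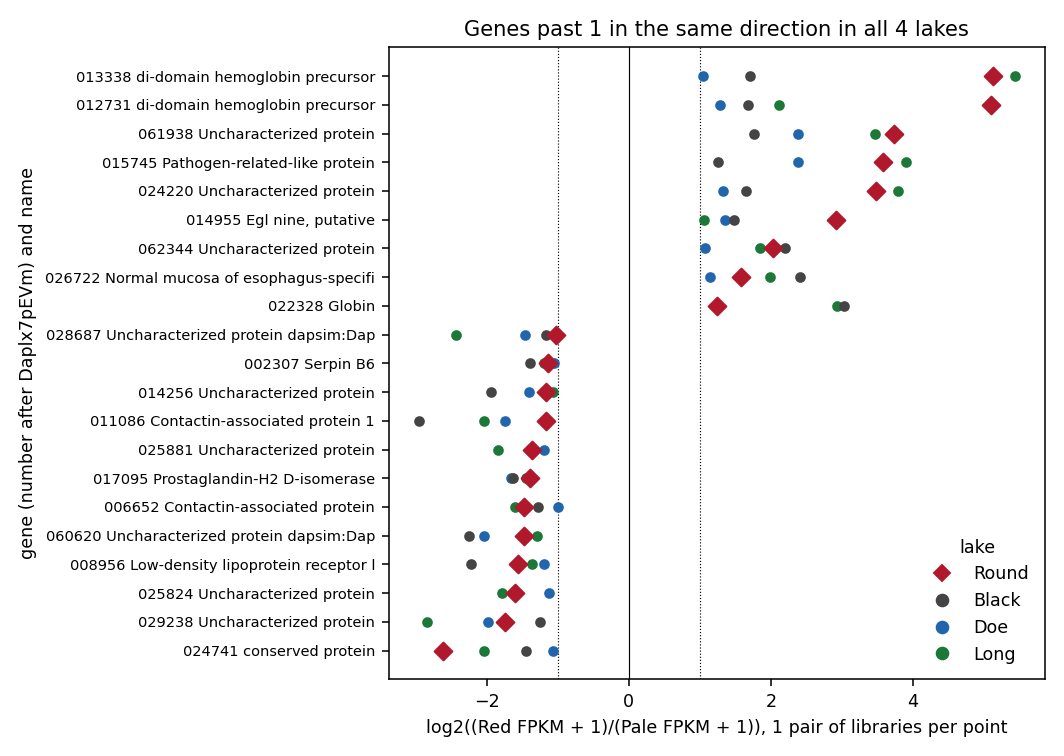
Each row is 1 of the 21 genes that were past 1 in the same direction in all 4 lakes, with the log2 difference of Red against Pale in Round (diamond) and in Black, Doe and Long (dots); dotted lines mark 1 and -1. The Round diamond lies above 5 for 2 di-domain hemoglobin genes and at -2.61 for the lowest gene.

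Whether the Round difference departed from that of the other lakes was tested with limma, which compared the Round pair with the mean of the other 3 pairs for each gene. No gene passed after Benjamini-Hochberg adjustment over 12865 genes: 0 were higher and 0 lower in Round (0.0% each). At an unadjusted p under 0.05, 310 genes (2.41%) were higher and 143 (1.11%) lower in Round than in the other lakes, out of 12865. Those shares together are below 0.05, the share this threshold would give with no difference in any gene. They therefore do not point to genes special to Round. On simulated data for this comparison, in 10 sets of 12865 genes, the test recovered 1.6% of genes with a log2 change of 2. It recovered 29.8% at 3 and 85.4% at 5, with 8.2 false calls per set. The simulated noise was drawn from spreads that limma had already pulled towards a trend over all genes. These shares may therefore be too high for the real data. The absence of calls thus does not show that the lakes are alike.

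The genes with the smallest p are given as values that did not pass (limma adjusted p = 1.0 for each). Collagen alpha-3(VI) chain/sw (Daplx7pEVm005626) had 34.3 FPKM in Red and 0.58 FPKM in Pale in Round, against 0.21 and 0.57 FPKM in Black, 2.43 and 7.78 FPKM in Doe, and 24.5 and 83.9 FPKM in Long. Its Round difference exceeded the mean of the others by 5.64 ± 0.62 (SE). C-type lectin domain family 2 member D3 (Daplx7pEVm007225) had 5.06 FPKM in Red and 0.27 FPKM in Pale in Round, and exceeded the others by 3.32 ± 0.38. For both, Red was above Pale in Round and below it in all other 3 lakes.

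The di-domain hemoglobin gene Daplx7pEVm012731 exceeded the other lakes by 3.40 ± 0.44 (SE). It had 269 FPKM in Red and 6.90 FPKM in Pale in Round, 466 and 145 FPKM in Black, 499 and 205 FPKM in Doe, and 270 and 61.5 FPKM in Long. The Red values of Round and Long were alike, and the Round Pale value was the lowest of the 8. Of the 27 globins, 12 (44.4%) had a Round difference above that of all other 3 lakes, against 29.5% of all genes, and 4 (14.8%) below, against 17.6%. By contrast, Daplx7pEVm022328 had its smallest difference in Round, 1.24, against 3.02 in Black, 1.25 in Doe and 2.92 in Long.

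Other genes above the other lakes were Sulfotransferase sult (Daplx7pEVm011351, 11.0 FPKM in Red and 3.12 FPKM in Pale), Pupal cuticle protein Daplx7pEVm018499 and PDCD-5, Programmed cell death gene-5 protein (Daplx7pEVm029229, 10.3 FPKM in Red and 2.74 FPKM in Pale). Genes below the other lakes were low in level. Mediator of RNA polymerase II transcription subunit (Daplx7pEVm023111) had 1.64 FPKM in Red and 7.36 FPKM in Pale, Signal transducer and activator of transcription 5B (Daplx7pEVm010502) had 1.53 FPKM in Red and 4.31 FPKM in Pale, and Secreted protein Daplx7pEVm019528 had 8.90 FPKM in Red and 13.0 FPKM in Pale. 28S ribosomal protein S10 (Daplx7pEVm018829), of the mitochondrial ribosome, had 3.84 FPKM in Red and 10.2 FPKM in Pale, and Phosphomannomutase (Daplx7pEVm017060), a sugar phosphate enzyme, had 1.36 FPKM in Red and 3.97 FPKM in Pale.

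At the level of isoforms, 23583 of 109737 averaged 1 FPKM or more; 1452 (6.16%) were higher and 2063 (8.75%) lower by at least 1 in Round Red. Of 5525 genes with 2 or more such isoforms, 244 had 1 isoform higher and another lower, and 186 of these were within 0.5 of 0 as whole genes. Creatine kinase U-type, mitochondrial (Daplx7pEVm009797), which stores energy as phosphocreatine or a like compound, had 466 FPKM in Red and 420 FPKM in Pale as a whole. Its isoform t4 had 81.2 FPKM in Red and 35.6 FPKM in Pale, while isoform t3 was listed at 0 in Red and at 1.72 FPKM in Pale.

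Fatty acid binding protein 11a (Daplx7pEVm018566), a carrier of fatty acids, had 7.26 FPKM in Red and 3.09 FPKM in Pale for isoform t2, and 37.9 FPKM in Red and 87.5 FPKM in Pale for isoform t3. Its t2 difference was above 0 in the other lakes too (1.13 in Black, 0.86 in Doe and 2.09 in Long), and so was its t3 difference (0.34 in Black, 0.14 in Doe and 0.76 in Long), against -1.19 for t3 in Round. Bm8 interacting protein 2d-4 (Daplx7pEVm005848) had 25.7 FPKM in Red and 11.2 FPKM in Pale for isoform t3, and 32.0 FPKM in Red and 69.4 FPKM in Pale for isoform t8. In 30 of the 244 genes the same isoforms were past 1 in the same directions in at least 1 other lake, and in 21 they were reversed. Reads shared by isoforms are divided by estimate, so values of single isoforms are less certain than those of genes.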

How the data were processed

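RNA from whole adults was depleted of ribosomal RNA and made into directional libraries, per the labels' protocols. The authors deposited FPKM values with 2 decimals for genes and isoforms. Trimmomatic, which trims reads, is named in the submitters' processing notes; aligner, quantifier and genome build are not given in the sources used here. The deposited log2 ratios per lake (4 columns) were not used.

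Values were analysed as log2(FPKM + 1) for genes that averaged 1 FPKM or more across the 8 libraries. The sole test was limma 3.58.1 (R 4.3.3, trend, two-sided, Benjamini-Hochberg adjustment, threshold 0.05). Its terms were lake, phenotype and a further term for Red in Round, with 2 residual degrees of freedom. Its error starts from the spread of the Red minus Pale difference over the other 3 lakes, which may include technical differences between libraries. That spread is pulled towards a trend over all genes (median prior degrees of freedom 2.47). The SE given is therefore not the spread of the 3 lakes alone. The test was tried on simulated data. Tables and figures used Python 3.11.15, pandas 2.3.3 and matplotlib 3.10.9. Of 33069 gene identifiers, 0 matched the RefSeq gene table, so names are those deposited and no coordinates or sequences are given.

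The comparison, the 30 gene lists (name patterns) and the rule for named genes were chosen with earlier results of these data known, and some patterns were trimmed after their values had been seen. Named were the largest differences per direction at 10 FPKM or more, those at a Round mean of 100 FPKM or more, genes past 1 in all 4 lakes, the smallest interaction p, members of lists and of the 6 highest and 6 lowest families with the largest differences or the highest level, and isoforms of opposite direction with the largest sums; all globins were open to naming. 1 gene that the isoform rule names is not reported here. Alternatives were other pseudocounts, filters and scalings, other limma settings and leaving out each other lake.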

Additional observations from a re-analysis of the deposited data

Results flagged for a closer look

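In 11 genes among those named, with a Round difference of at least 1 in size, the Round pair went one way and the pairs of all other 3 lakes the other way; this was looked for among genes already chosen for their size or their departure from the other lakes. The limma comparison with the other lakes did not pass after adjustment for any of them (adjusted p = 1.0 each), and each value below is the Round difference of Red against Pale on the log2(FPKM + 1) scale. Above 0 in Round were Transport protein Sec61 subunit gamma (Daplx7pEVm063597, 4.88, listed at 0 in Round Pale and Long Red), Collagen alpha-3(VI) chain/sw (Daplx7pEVm005626, 4.48), Pupal cuticle protein (Daplx7pEVm018499, 3.68), C-type lectin domain family 2 member D3 (Daplx7pEVm007225, 2.25), PDCD-5 (Daplx7pEVm029229, 1.59) and Sulfotransferase sult (Daplx7pEVm011351, 1.54). Below 0 in Round were Endocuticle structural glycoprotein SgAbd-2 (Daplx7pEVm027191, -4.56, listed at 0 in Round Red, Doe Pale and Long Pale), Mediator of RNA polymerase II transcription subunit (Daplx7pEVm023111, -1.66), 28S ribosomal protein S10 (Daplx7pEVm018829, -1.21), Signal transducer and activator of transcription 5B (Daplx7pEVm010502, -1.07) and Phosphomannomutase (Daplx7pEVm017060, -1.07).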

How the results depend on the processing

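Counts at a fixed size depended on the pseudocount and the filter. The genes higher in Round Red numbered 869 with a pseudocount of 0.1, 79 with 5, 748 with no filter and 136 with a minimum mean of 5 FPKM, and the lower genes 1162, 247, 1039 and 389. In all 4 lakes, 17 genes were higher and 29 lower with a pseudocount of 0.1, 3 and 3 with 5, and 7 lower with quantile normalization. Over the lakes left, leaving out 1 other lake gave from 14 (without Black) to 28 (without Doe) higher genes and from 31 (without Black) to 109 (without Doe) lower genes, with 40 lower without Long; fewer lakes then have to match. Families with a median of at least 0.5 numbered 4 with a pseudocount of 5 and 5 with a minimum mean of 5 FPKM, and those at -0.5 or less 10 with a pseudocount of 5, 21 with no filter and 19 after rescaling without the most abundant gene. Isoforms higher in Red numbered 2810 with a pseudocount of 0.1, 231 with 5, 2820 with no filter and 314 with a minimum mean of 5 FPKM, and lower ones 3482, 481, 3532 and 673. The interaction called 0 genes in each of 13 settings, with a smallest adjusted p from 0.10 to 1.0. Of 30 list medians, 8 changed sign after rescaling without the most abundant gene and 7 with quantile normalization; the cause was not tested. Red and Pale were paired by lake, which is a term of the limma fit. By replicate number, no paired analysis was possible because each group holds 1 library and the groups share fewer than 2 such numbers.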
